A study of Drosophila melanogaster with 2 samples.

Results

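The genes described here encode the subunits of RNA polymerase II (Pol II), the general initiation factors that position it, and the TATA-binding protein family with its associated factors (TAFs). They were taken by symbol from the Ensembl annotation of Drosophila melanogaster: every gene whose symbol begins with Polr2, TfII or Taf followed by a letter or number, together with Tbp, Trf and Trf2. This gave 40 of the 13945 protein-coding genes on the 6 chromosome arms, made up of 13 Polr2 genes, 9 TfII genes, 15 Taf genes and the 3 genes of the TBP family. TAF1B and TAF1C-like, written in capitals and acting with RNA polymerase I, were outside the rule. The data were lists of regions enriched in ChIP-seq, the sequencing of immunoprecipitated chromatin, from whole embryos of mixed sex, 0 to 24 hours old, from the transgenic strain Meics-GFP. The strain stably expresses the zinc-finger protein Meics with GFP at its C-terminal end, and chromatin was precipitated through the GFP. The samples form 1 group of 2, which the labels number as biological replicates 1 and 3, and no untreated or untagged group was analysed here. The promoter that drives the tagged protein is not given in the sources used here, and the peaks average over all tissues of the embryo.

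Pol II transcribes the protein-coding genes. Before it can start, the TATA-binding protein and its TAFs, which together form TFIID, settle on the core promoter, and TFIIA, TFIIB, TFIIF and TFIIE join with the polymerase around them. These are housekeeping components that every transcribing cell needs, while a few of the fly genes (Taf12L, Trf, Trf2) are variants with specialised roles. The peaks do not measure expression of these genes, and the cell types of the embryo could not be checked against markers with peak lists.

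Meics-GFP summits were present at 16 of the 40 genes. A gene was counted when a summit, the highest point of a peak, lay within 500 bp of any of its annotated transcription start sites (TSSs) in the list of 7689 peaks thresholded by irreproducible discovery rate (IDR), whose regions were called on both replicates together. The share was 40% (Wilson 95% interval 26.3 to 55.4), against 26.1% of all 13945 coding genes. The 16 were Polr2A, Polr2B, Polr2F, Polr2H, Polr2I, Polr2J, TfIIA-L, TfIIA-S, TfIIB, TfIIEbeta, Taf2, Taf4, Taf5, Taf11, Taf13 and Trf2. By role these were 6 of 13 Polr2 genes, 4 of 9 TfII genes, 5 of 15 Taf genes and 1 of the 3 TBP family genes. No test was made of the list against other genes, and the interval covers counting error only. The count depended on how shared promoters were treated. When each summit was given only to the gene with the nearest coding TSS, 8 of the 40 genes kept one (20%), beside 20.6% of all coding genes.

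**Figure D1:**
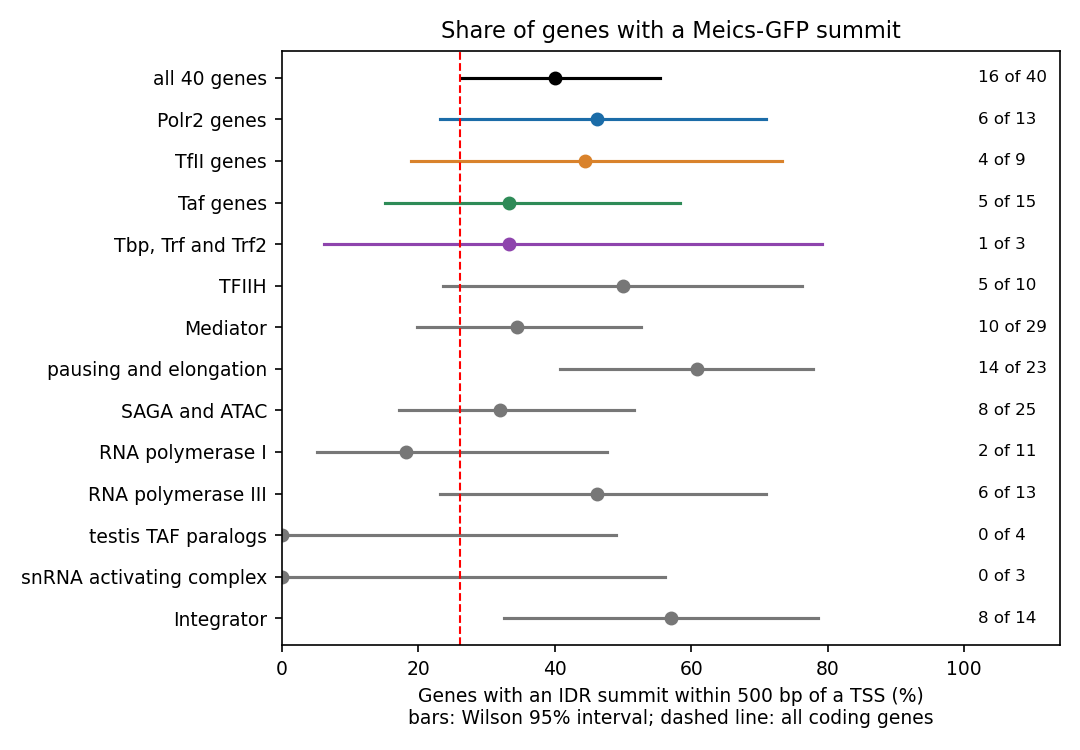
Share of genes with an IDR-thresholded summit within 500 bp of a TSS, in percent, for all 40 genes, for each role among them and for other lists of the transcription machinery; bars are Wilson 95% intervals and the dashed line is the 26.1% of all coding genes. The point for all 40 genes is at 40%, the Polr2 genes are at 46.2% and the Taf genes at 33.3%.

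Among the Polr2 genes, which encode the polymerase itself, the strongest peak was at Polr2B. Polr2B (FBgn0262955), the second-largest subunit, lies on 3R from 14125791 to 14130111, and its peak spanned 14125483 to 14125869 with the summit 104 bp upstream of the TSS. The signal value, the authors' measure of enrichment for each region, was 931 there, which is 3.55 times the median of the IDR list and placed the peak at rank 608. Polr2B was at rank 520 in the list of replicate 1 (signal value 436) and 715 in that of replicate 3 (496), so that both replicates held it among their strong regions. Each replicate list holds 30000 regions, of which the weaker ones are background, and levels are read by rank within a list.

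Next came Polr2H, with a signal value of 503 at rank 1571, Polr2J at 477 and rank 1710, and Polr2F at 457 and rank 1816. Polr2F and Polr2H encode small subunits shared by all nuclear RNA polymerases, and Polr2J encodes a subunit of the assembly platform of the enzyme. Polr2H was at rank 1098 in replicate 1 and 2157 in replicate 3, and Polr2F at 1928 and 1736. Polr2J was at rank 1595 in replicate 1 but had no region in replicate 3, where the nearest summit was 10349 bp away.

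Polr2A and Polr2I had weaker peaks. Polr2A, the largest subunit, which carries the repeated C-terminal domain, had a signal value of 237 (rank 4358), 0.904 times the list median, and Polr2I had 186 (rank 5769). Polr2A was at rank 5481 in replicate 3, with its summit 4 bp downstream of the TSS, and had no region in replicate 1, where the nearest summit was 6444 bp away. Polr2I was at rank 3681 in replicate 1 and 7925 in replicate 3. Its strongest summit was at -227 bp in replicate 1 and -145 bp in replicate 3, against -133 bp in the IDR list. The replicate 1 summit is thus outside the window printed below.

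The sequence beneath these summits is shown because it differs in base composition among genes of 1 enzyme. Each line holds the 101 bp centred on the summit, read 5′ to 3′ on the strand of the gene from the RefSeq copy of the dm6 assembly. Capitals mark CGATA and TATAAA on either strand (TATCG and TTTATA are their reverse complements), and the Polr2B and Polr2J windows hold neither word.
Polr2B, chr3R:14125637-14125737, plus strand: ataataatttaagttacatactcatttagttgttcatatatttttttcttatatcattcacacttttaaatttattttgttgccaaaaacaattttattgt
Polr2J, chr2L:17410495-17410595, minus strand: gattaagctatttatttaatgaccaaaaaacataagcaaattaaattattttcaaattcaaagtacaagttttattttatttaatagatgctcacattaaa
Polr2I, chr3R:14308906-14309006, plus strand: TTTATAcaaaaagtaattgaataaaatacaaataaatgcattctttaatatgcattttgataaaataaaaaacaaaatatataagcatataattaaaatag
Polr2F, chr3R:5371695-5371795, plus strand: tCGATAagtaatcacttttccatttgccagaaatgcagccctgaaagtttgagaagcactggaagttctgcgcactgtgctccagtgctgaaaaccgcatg

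The GC content of these windows was 17.82% at Polr2B, 18.81% at Polr2J and 13.86% at Polr2I, and 46.53% at Polr2F. The Polr2A and Polr2H windows, which are not printed, lay between these values at 26.73% and 38.61%. The first 3 printed windows are rich in A and T, and that of Polr2F ends at its TSS.

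The other 7 Polr2 genes had no IDR-thresholded summit within the window. They were Polr2C, a subunit that pairs with Polr2J in the assembly platform, Polr2D and Polr2G, which form the stalk of the enzyme, Polr2E, Polr2K and Polr2L, which are shared with the other polymerases, and Polr2M, a protein that associates with the enzyme. Polr2E had a weaker region 35 bp upstream of its TSS in both replicates, at rank 15127 in replicate 1 and 11655 in replicate 3. Polr2G had one in replicate 3 alone, at rank 21627. Polr2C, Polr2D, Polr2K, Polr2L and Polr2M had no region in either list of 30000. The partner subunits thus did not share a call in the IDR list: Polr2J had a summit, and the nearest one to Polr2C was 2124 bp from its TSS. In replicate 3 neither gene had a region. The Polr2J summit was also nearer to the TSS of CG15141 (96 bp) than to that of Polr2J (139 bp).

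The TfII genes encode the general initiation factors and the elongation factor TfIIS. TfIIA-L, the precursor of the larger TFIIA subunits, which stabilise TBP on DNA, had a signal value of 454 (rank 1834), and TfIIA-S, the small subunit, had 415 (rank 2133). TfIIA-L was at rank 1627 in replicate 1 and 2052 in replicate 3, and TfIIA-S at 1921 and 2411. Both TFIIA genes of the general factor were therefore among the stronger regions of each replicate, with summits that moved by at most 11 bp between the IDR list and either replicate. The TfIIA-L peak, on 3R from 27253143 to 27253379, lay 168 bp upstream of an internal TSS, in an intron of the longer transcript. The paralog TfIIA-S-2 had no region within 500 bp in any list; its nearest summit was 1091 bp from the TSS, in replicate 3.

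TfIIB, the bridge between the promoter complex and the polymerase, had a signal value of 428 (rank 2025). The TfIIB summit was the farthest from its own TSS of the 16, 331 bp upstream. It was at rank 2507 in replicate 3, and the nearest summit in replicate 1 was 17099 bp from the TSS. TFIIE, which recruits and regulates TFIIH, was split: TfIIEbeta had 273 (rank 3664, with ranks 3812 and 3878 in replicates 1 and 3), while TfIIEalpha had only weaker regions, at rank 12913 in replicate 1 and 10936 in replicate 3. TFIIF, which accompanies the polymerase to the promoter, had no IDR summit at either gene. TfIIFalpha had a region at rank 9945 in replicate 3, and the nearest IDR summit to TfIIFbeta was 6707 bp away. For TfIIS, which helps stalled polymerase to resume, the nearest IDR summit was 802 bp from the TSS.

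The TfIIEbeta and TfIIA-S summits are shown as the contrast among this group, with the same marks as above. The window of TfIIEbeta is 28.71% GC, and that of TfIIA-S, which reaches into the first transcribed bases, is 48.51% GC.
TfIIEbeta, chr3L:4286913-4287013, plus strand: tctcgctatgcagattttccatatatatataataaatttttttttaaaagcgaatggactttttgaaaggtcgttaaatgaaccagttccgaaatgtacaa
TfIIA-S, chr3R:23891043-23891143, minus strand: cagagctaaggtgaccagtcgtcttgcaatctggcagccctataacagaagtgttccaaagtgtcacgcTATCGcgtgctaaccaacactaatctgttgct

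Among the Taf genes, Taf2 had the strongest peak of all 40 genes. Taf2, the subunit that contacts DNA around the initiator, had a signal value of 948 (rank 593), 3.62 times the list median, and was at rank 473 in replicate 1 and 708 in replicate 3. Its peak on 3L from 9888694 to 9889135 had its summit 219 bp upstream, in the 5′ UTR of the divergent gene CalpB, and a weaker IDR summit lay in the same window. Taf5, a WD-repeat scaffold of TFIID, had 771 (rank 854), with ranks 846 and 875 in the replicates. Taf4, a core TFIID subunit, had 638 (rank 1130) at the middle of its 3 TSSs. It was at rank 1103 in replicate 3, and the nearest summit in replicate 1 was 1942 bp away.

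Taf11 and Taf13, which bind each other through histone folds, had similar weaker peaks, with signal values of 245 (rank 4196) and 231 (rank 4478). Their ranks in replicate 3 were 5234 and 5242, and in replicate 1 they were 3883 and 4695. In the other histone-fold pairs at least 1 gene had no IDR summit. Taf12, the partner of Taf4, had a region in replicate 3 alone (rank 12096). Taf9 likewise had a region in replicate 3 alone (rank 9358), and its partner Taf6 had none in any list. Taf8, which pairs with Taf10, had regions in both replicates (ranks 7965 and 22709). Taf10 and its close relative Taf10b start 45 bp apart on opposite strands, so they share a promoter and a single region, at rank 8279 in replicate 3, cannot be assigned to either.

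Taf1, the largest TFIID subunit and its scaffold, had a region in replicate 1 alone, at rank 18545. Taf7, which binds Taf1, had none, and neither had Taf3, on chromosome 4, whose nearest IDR summit was 15989 bp away. Taf12L, which has a testis role in flies, had none within 500 bp; the nearest summits were 631 bp away in replicate 1 and 676 bp in replicate 3.

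In the TBP family, only Trf2 had an IDR summit. Trf2, a relative of TBP that serves promoters without a TATA box, had a signal value of 181 (rank 5962), the weakest of the 16, and was at rank 8048 in replicate 1 and 5542 in replicate 3. It was also the 1 gene of the 16 whose summit lay downstream of the TSS, by 83 bp, in its 5′ UTR and within the 3′ UTR of the overlapping gene lawc. Tbp, the TATA-binding protein itself, had regions in both lists without passing the IDR threshold, at rank 21419 in replicate 1 and 7397 in replicate 3. Trf, which in flies works with RNA polymerase III, had none within 500 bp, although it starts 47 bp from the Mediator gene MED20 on the other strand.

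**Figure D2:**
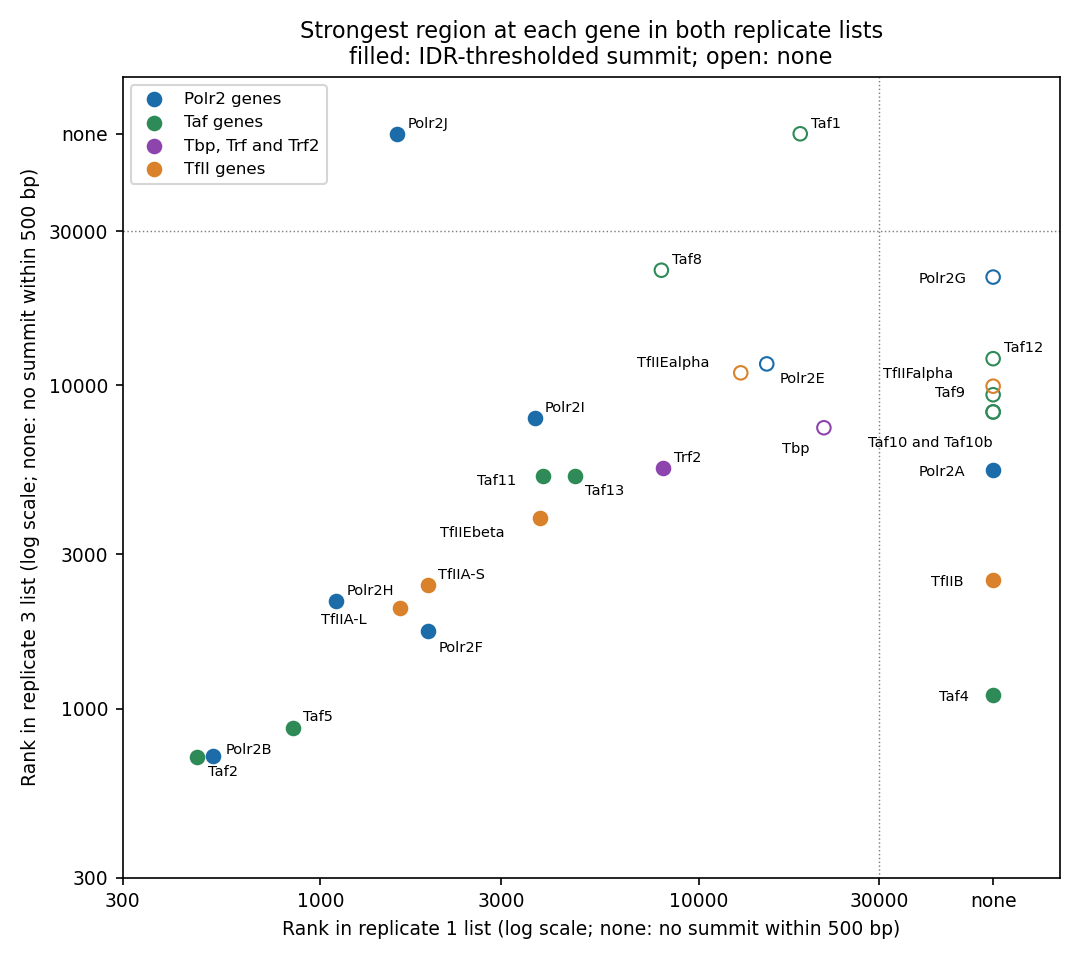
Rank of the strongest region within 500 bp of each gene in the list of replicate 1 (x axis, log scale) and of replicate 3 (y axis, log scale), where rank 1 is the strongest of 30000 regions and genes beyond the dotted lines had no region in that list; filled points have an IDR-thresholded summit, and 13 genes with no region in either list are not drawn. Taf2, Polr2B and Taf5 lie at the strong end in both lists, and Polr2J, Polr2A, TfIIB and Taf4 are filled points that have a region in 1 list only.

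The full lists, which reach below the IDR threshold, gave other shares. Here, 18 of the 40 had a summit in replicate 1 (45%, against 45.9% of all coding genes) and 25 in replicate 3 (62.5%, against 48.5%). There were 16 with a summit in both lists (40%), where the share of all coding genes was 39.8%. These 16 are a different set from the 16 with an IDR summit. Polr2E, TfIIEalpha, Taf8 and Tbp are in the first only. Polr2A, Polr2J, TfIIB and Taf4 are in the second only, as 1 replicate list held no region at each. In the pooled list of 30000 regions, 25 of the 40 had a summit (62.5%, against 46.2%), which leaves 15 with none. Taf10 and Taf10b both count through 1 shared region, in replicate 3 and in the pooled list. The 9 with a pooled region but no IDR summit ran from Tbp at rank 9606 to Taf8 at rank 16676.

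Some of the 16 peaks had a matching region in the list of 1 replicate alone. Of the 16 peaks, 4 overlapped no region in the list of a replicate (25%): those of Polr2A, Taf4 and TfIIB in replicate 1 and that of Polr2J in replicate 3. Among the 2730 IDR peaks that mark any coding gene, 62 (2.27%) had no match, and among all 7689 it was 89 (1.16%). Without these peaks 12 of the 40 genes had a summit (30%), beside 25.5% of coding genes. The signal values and ranks of the 16 peaks are those of the pooled list. These values were 237 at Polr2A, 638 at Taf4, 428 at TfIIB and 477 at Polr2J. The 1 replicate list with a region there gave 119, 383, 218 and 211. At Polr2B, with a region in both replicates, the value was 931, beside 436 and 496. A region missing from a list does not show that the replicate had no signal there. What the unmatched peaks come from was not tested. With the strongest 7689 regions of a replicate taken alone, 12 genes had one in replicate 1 (30%, beside 26.2% of coding genes) and 15 in replicate 3 (37.5%, beside 26.8%). Both of these shorter lists held 10 of the 40 genes (25%) and 22.8% of coding genes. Polr2A, Polr2J, TfIIB and Taf4 could not count here, since 1 replicate list held no region at their peaks. Such gaps were at 25% of the peaks of these genes and 2.27% of those at coding genes. The 2 shares are therefore not lowered alike. The 10 were Polr2B, Polr2F, Polr2H, TfIIA-L, TfIIA-S, TfIIEbeta, Taf2, Taf5, Taf11 and Taf13.

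The strength and position of the peaks were set beside those at all coding genes with a summit. Over the 16 genes the median signal was 1.68 times the median of the IDR list, with a range of 0.692 to 3.62. The median over all 3645 coding genes with a summit was 1.31. Above the median signal of the list were 11 of the 16 (68.8%, against 63.2% of the 3645). The summit was upstream of the nearest own TSS at 15 of the 16 genes (93.8%, against 84.5%), with a median position of -136 bp, and -130 bp over the 3645. The members nearest to the edge of the window were TfIIB at 331 bp, Taf2 at 219 bp and Polr2H at 196 bp inside it, and TfIIS at 802 bp, Taf12 at 1420 bp and TfIIEalpha at 1541 bp outside it.

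**Figure D3:**
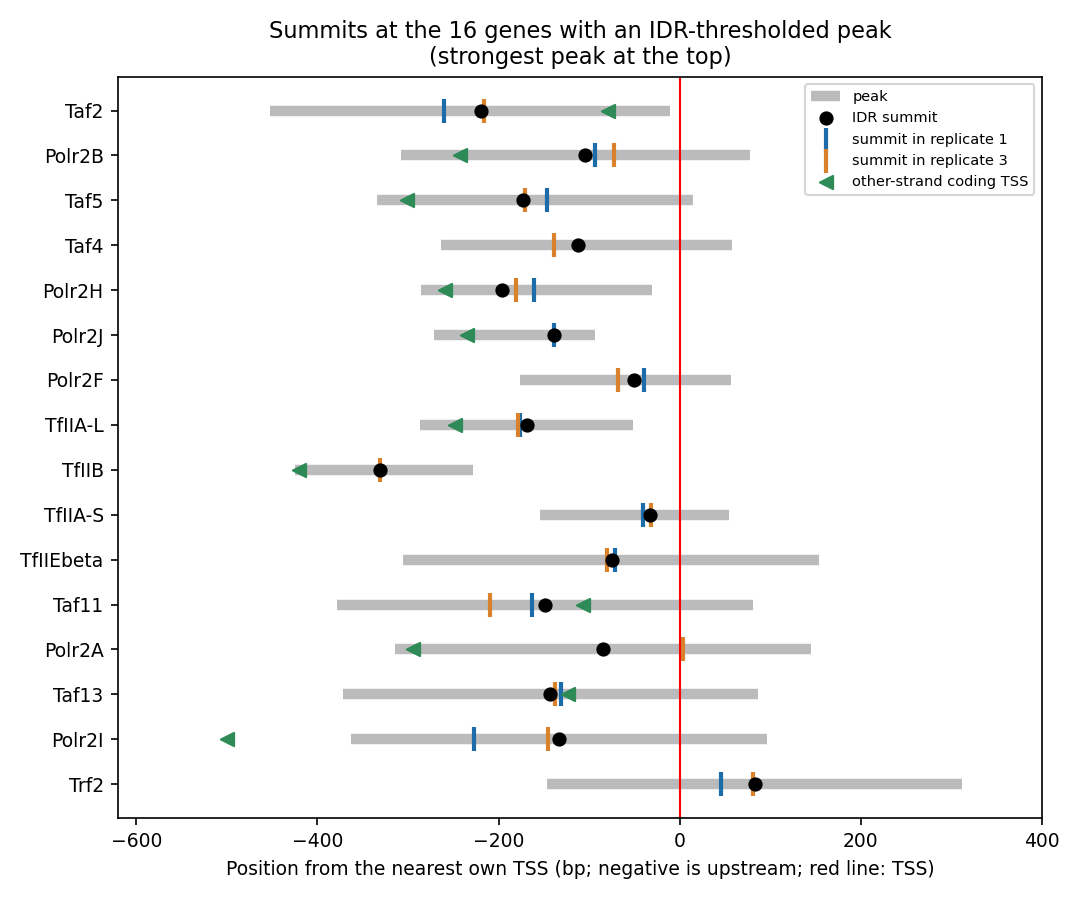
Position of each IDR summit (black), of the summits in replicate 1 (blue) and replicate 3 (orange) and of coding TSSs on the other strand (green) relative to the nearest own TSS in bp, for the 16 genes with an IDR peak, whose extent is the grey bar. Trf2 is the only gene with its IDR summit downstream, at 83 bp, and the Taf2, Taf11 and Taf13 summits lie beyond the start of the divergent gene.

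Many of these genes have a divergent neighbour. The start of another coding gene, on the opposite strand, was found within 500 bp upstream at 22 of the 40 genes (55%, against 27.4% of all coding genes). Of these 22, 11 had an IDR summit (50%), where divergent coding genes in general were at 45.1%. Of the other 18, 5 had one (27.8%), against 19%. When the coding genes were weighted to the same share of divergent genes, 33.3% had a summit, which sits between the 26.1% of all genes and the 40% of this list. How far the divergent layout bears on the count was not tested beyond these values.

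The summit had another coding TSS within 500 bp at 11 of the 16 genes, on the other strand in each case. At 8 of the 16 (50%) that TSS was nearer than the gene's own, against 884 of 3645 (24.3%) in general. These were Polr2H with CG11247 (63 bp from the summit), Polr2J with CG15141 (96 bp), TfIIA-L with pll (80 bp), TfIIB with Bug22 (89 bp), Taf2 with CalpB (140 bp), Taf5 with Pex6 (128 bp), Taf11 with und (42 bp) and Taf13 with nesd (20 bp). At Polr2H, Taf2, Taf11 and Taf13 the summit was inside the 5′ UTR of the neighbour, at Polr2H between annotated starts of CG11247. The summits of Polr2B, between its own TSS and that of 140up, and of Polr2I, which faces the insulator gene su(Hw), were nearer to the Polr2 gene.

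The DNA at the summits was poor in G and C while the sequence beside them was not. The median GC content in the 101 bp around the 16 summits was 27.7%, with a range of 12.9% at Taf2 to 48.5% at TfIIA-S. In windows of the same length 500 bp to either side the median was 51.7%. Over the 2730 peaks that mark coding genes these medians were 34.65% and 45.05%. The summit was lower than its flanks at 14 of the 16 genes (87.5%, against 73.8%), and the exceptions were Trf2 (39.6% and 34.65%) and TfIIA-S (48.5% and 43.6%). Promoters without a summit were not measured, so these values cannot set the summits apart from promoter DNA in general.

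**Figure D4:**
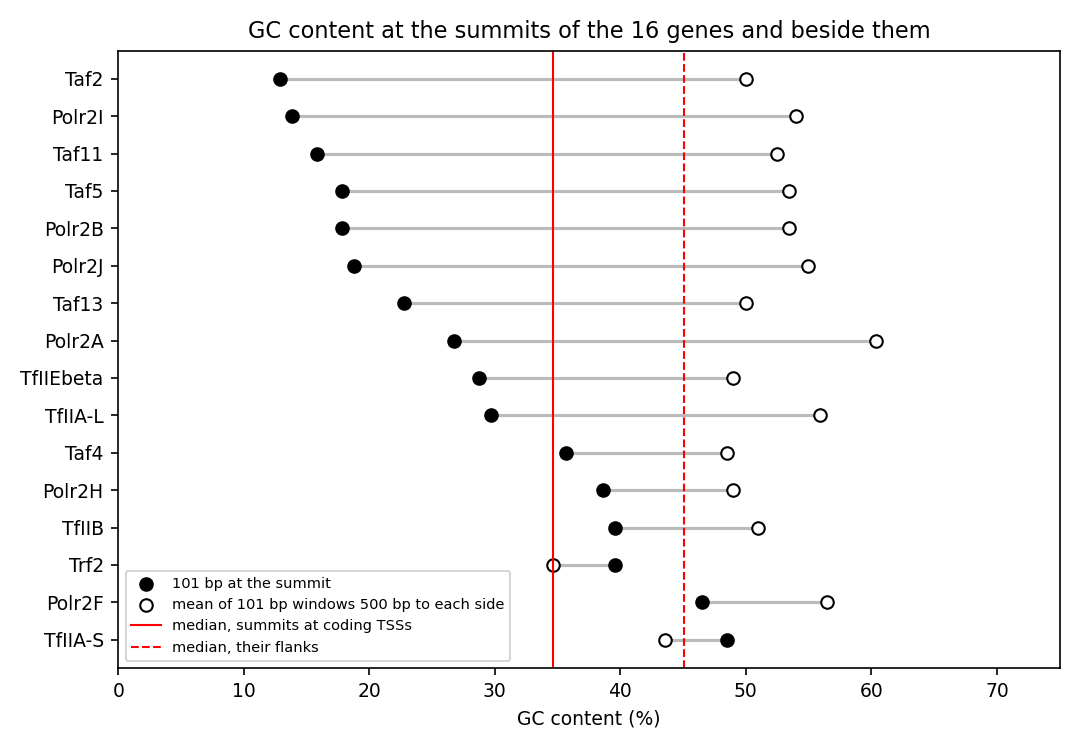
GC content in percent in the 101 bp at the summit (filled) and as the mean of windows 500 bp to each side (open) for the 16 genes; the red lines are the medians over all IDR peaks that mark a coding gene, solid at the summit and dashed beside it. Taf2 has the lowest value at the summit, 12.9%, and Trf2 and TfIIA-S are the genes with a higher value at the summit than beside it.

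The promoters of the 40 genes were searched for core promoter words on both strands, from 250 bp before to 50 bp after each TSS. GGTCACACT, the word of the motif 1 binding protein M1BP, was at 8 of the 40 (20%), against 6.78% of coding genes. They were Polr2D, Polr2G, Polr2I, Polr2L, Taf1, Taf4, Taf5 and Trf. In 6 of them it lay on the strand of the gene with its first base 1 to 16 bp after the TSS. In the other cases it stood at the start of the divergent neighbour, 3 bp after the TSS of Tgs1 beside Polr2D and 7 bp after that of MED20 beside Trf, on the neighbour's strand. Placed within 25 bp after a TSS, a range chosen after these positions were seen, it was at 6 of the 40 (15.0%) and 275 of all coding genes (1.97%). Genes with and without peaks both held it: 3 of the 16 genes with an IDR summit held it in the promoter (18.8%), and 5 of the 24 without (20.8%). Of the 3, Taf4 held the word at its first TSS, while its IDR summit was at the middle TSS. Over all coding genes with a summit the word was in the promoter at 10%, beside the 6.78% of all coding genes. Of the 275 coding genes with it within 25 bp after a TSS, 93 had an IDR summit (33.8%, against 26.1%). Within 50 bp of the summit GGTCACACT was at 0 of the 16 genes. It was at 1.36% of the 2730 summits at coding genes, a share too small to be read in 16.

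TATCGATA, the element bound by DREF, was at 5 of the 40 genes (12.5%, against 10.2%): Polr2D, Polr2L, Taf3, Taf7 and Tbp. In 4 of them its first base was 17 to 39 bp before the TSS. The word at Polr2D was also 33 bp before the TSS of the divergent gene Tgs1, and cannot be assigned to either gene. At Taf7 it was 248 bp before an internal TSS and 34 bp before the TSS of the neighbour EMC1. All 5 were among the 24 genes without an IDR summit (20.8%), and 0 of the 16 with one held it, while over all coding genes with a summit it was at 14.5%. In a wider search, from 500 bp before to 100 bp after each TSS, it was also at TfIIA-S, 1 of the 16.

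The starts of the genes are shown here because these words recur at nearly the same place in them. Each line runs from 60 bp before to 25 bp after the TSS on the strand of the gene, with GGTCACACT and TATCGATA in capitals on either strand. The Polr2D line holds both words, the first reversed and belonging to Tgs1, the second upstream of both starts. Taf5 and Tbp, which hold 1 of the words each, are not printed.
Taf1, chr3R:6646829-6646914, plus strand: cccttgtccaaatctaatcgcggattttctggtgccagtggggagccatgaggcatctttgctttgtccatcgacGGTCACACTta
Taf4, chr3L:16113152-16113237, plus strand: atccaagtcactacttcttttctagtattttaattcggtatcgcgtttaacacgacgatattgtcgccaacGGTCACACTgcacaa
Polr2G, chr3R:15223155-15223240, minus strand: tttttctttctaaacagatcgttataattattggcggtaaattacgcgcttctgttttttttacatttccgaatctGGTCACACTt
Polr2I, chr3R:14309029-14309114, plus strand: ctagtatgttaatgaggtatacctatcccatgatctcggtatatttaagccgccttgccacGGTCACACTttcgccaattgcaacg
Polr2L, chr3R:24717451-24717536, plus strand: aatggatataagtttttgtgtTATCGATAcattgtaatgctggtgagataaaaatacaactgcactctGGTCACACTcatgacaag
Polr2D, chr3R:18255462-18255547, minus strand: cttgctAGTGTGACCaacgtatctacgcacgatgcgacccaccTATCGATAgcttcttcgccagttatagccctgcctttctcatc
Taf3, chr4:466803-466888, minus strand: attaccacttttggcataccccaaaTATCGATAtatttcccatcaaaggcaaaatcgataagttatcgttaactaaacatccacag

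The other words were counted in the same windows. TCAGTT or TCAGTC, forms of the initiator, were at 4 of the 40 promoters (10%, Polr2A, Polr2C, Polr2I and Taf8), against 42.2% of coding genes. These words were counted anywhere in the window and on either strand. Their first bases were at -58 bp from the TSS at Polr2A, -239 bp at Polr2C and -238 bp at Polr2I. At Taf8 they were at -194 and -135 bp, so none of the 4 genes held the word at its start. GAGAG was at 9 (22.5%, against 36.4%), TATAAA at 20 (50%, against 51.3%) and CGATA at 25 (62.5%, against 53.1%). By call, TATAAA was at 11 of the 16 genes with an IDR summit (68.8%) and 9 of the 24 without (37.5%). For GAGAG these were 5 (31.2%) and 4 (16.7%), and CGATA was at 62.5% of each. Over all coding genes with a summit, TATAAA was at 55.9%, GAGAG at 44.4% and CGATA at 63.2%. These splits were not tested. Of 2 further words, GTGACGAA and GTAACGAA, neither was found (0 of 40, against 2.24%). Genes with several TSSs are searched in more windows, and 36 of the 40 genes have 1 TSS, against 73.5% of coding genes. Among genes with 1 TSS the initiator words were at 4 of 36 (11.1%) against 35.4%, GAGAG at 8 of 36 (22.2%) against 28.2%, and GGTCACACT at 7 of 36 (19.4%) against 6%. The counts of initiator and GAGAG words depended on the window. From 500 bp before to 100 bp after the TSS, initiator words were at 14 of the 40 genes (35%, against 57.8%) and GAGAG at 16 (40%, against 52.9%). Among genes with 1 TSS these wider shares were 30.6% against 52% for the initiator words and 41.7% against 45.7% for GAGAG. In the same class of genes an IDR summit was at 13 of 36 (36.1%), against 19.6%. Within 50 bp of the 16 summits, TATAAA was at 4 (25%, against 21.5% of the 2730 summits at coding genes) and CGATA at 3 (18.8%, against 20.2%). A word is not a binding site, and its absence from a window says only that these letters are not there.

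The rest of the transcription machinery was counted the same way, in 9 lists with 132 genes, of which 53 had an IDR summit (40.2%, beside the 26.1% of all coding genes). Pausing and elongation factors had one at 14 of 23 genes (60.9%), led by Nelf-E (signal value 1668), TH1 (657), both subunits of the pausing complex NELF, and Cdk12 (644), a kinase of the Pol II C-terminal domain. The Integrator complex, which cuts nascent RNA, had one at 8 of 14 (57.1%), led by IntS6 (847), IntS11 (553) and IntS9 (381). TFIIH, which opens the promoter, had one at 5 of 10 (50%), with Mat1 (4577) and Ssl1 (3535) well above any of the 40 genes, and Xpd (320).

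RNA polymerase III and its factors had one at 6 of 13 (46.2%), led by Polr3E (1361), Bdp1 (1342) and Brf (1118). The Mediator complex had one at 10 of 29 (34.5%), with MED17 (10838), MED30 (1019) and MED27 (713) the strongest. The SAGA and ATAC coactivators, some of which contain TAFs, had one at 8 of 25 (32%), with Ada2b (1155), Gcn5 (1046) and Sgf29 (442). RNA polymerase I and its factors had one at 2 of 11 (18.2%), TAF1C-like (380) and Polr1D (191). None of the 4 testis TAF paralogs (nht, can, sa and mia) and none of the 3 genes of the snRNA activating complex had one. A divergent coding TSS lay within 500 bp at 80 of the 132 listed genes (60.6%, against 27.4% of all coding genes). Of these 80, 38 had an IDR summit (47.5%, against 45.1% of divergent coding genes). Of the other 52, 15 had one (28.8%, against 19%). How far the divergent layout bears on the counts of the lists was not tested. Of the genes named from these lists with a summit, only Mat1 and Ada2b had no divergent neighbour. The other named peaks may therefore lie at shared promoters, and which gene of a pair they belong to was not tested. No difference between these lists and the 40 genes was tested.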

How the data were processed

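ChIP-seq peak lists on dm6 from 2 replicates of Meics-GFP embryos were used. Per the labels, chromatin was sonicated to 200 to 800 bp. The authors deposited a list of 30000 peaks and background regions per replicate, a pooled list and an IDR-thresholded list of 7689 peaks. No source used here gives the aligner, peak caller or IDR cutoff. The deposited signal value is the authors' enrichment per region, on a scale of its own in each list, so regions were compared by rank within a list. The deposited summit offset was added to the region start, and positions count from 1. Read depth is unknown, so no interval that needs reads is given. The dm3 lists were not used.

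Genes and TSSs came from Ensembl release 115 (BDGP 6.54, dm6 coordinates), and sequence from RefSeq's copy of the assembly, where 73 of 73 start codons of the 40 genes read ATG. A gene's peak was the strongest summit within 500 bp of any of its TSSs. Shares carry Wilson 95% intervals for counting error. There was no test over samples with 1 group of 2. The members, the lists and the words were chosen with earlier results of these data known. Every member is named with its call, and up to 3 genes of each other list. Of the list symbols, 5 were not matched and were left out (Taf12L, also called rye, was counted among the 40). Alternatives were other windows, each replicate alone, the stronger peaks only, whole intervals, nearest gene only, close summits left out and the pooled list. Summit assignment was tested on simulated data and matched a direct search at 3306 of 3306 genes. The software was Python 3.11.15 with pandas 2.3.3, numpy 2.4.6, matplotlib 3.10.9 and scipy 1.17.1.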

Additional observations from a re-analysis of the deposited data

How the results depend on the processing

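The count of 16 genes with a summit stayed within 1.5 times under windows of 200 bp (14, beside 18.6% of coding genes) and 1000 bp (17, beside 30.3%), with whole peak intervals (16, beside 28.1%), without close summits (16, beside 26%) and among peaks above the median signal (11, or 27.5% of the genes, beside 16.5%). It was 8 (20%, beside 20.6%) when a summit counted only for the nearest gene, and 25 (62.5%, beside 46.2%) in the pooled list, which includes background regions. With 1 replicate left out, the share was 30% to 37.5%, beside 26.2% to 26.8%. The median signal ratio was 1.41 to 1.77 and the median position -142 to -138 bp with 1 replicate left out, and -122 bp with the 200 bp window, which drops Taf2 and TfIIB. The count in the full replicate lists was 18 to 25 in a single list, beside 45.9% to 48.5%. Genes in both lists of 7689 regions, an alternative added after the data were seen, numbered 10 (25%, beside 22.8%). Polr2A, Polr2J, TfIIB and Taf4, at which 1 replicate list held no region, could not count in it. Matches of a member and a word fell from 71 in the promoters to 9 within 50 bp of the summits, where only 16 genes have a window. The causes of these changes were not tested. Of the 40 genes, 7 had a summit in all 6 main settings (Polr2B, Polr2F, Polr2H, TfIIA-L, TfIIA-S, TfIIEbeta and Taf5) and 22 in none. Groups of 3 to 15 genes give wide intervals, and without read depth a missing summit does not show that the protein is absent. No paired analysis was possible because there is 1 group.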
